A study of Homo sapiens with 48 samples.

Results

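The RIG-I-like receptor pathway was followed through its 10 core genes: the RNA sensors RIGI (RIG-I, listed as DDX58 in GENCODE 29), IFIH1 (MDA5) and DHX58 (LGP2), the ubiquitin ligase TRIM25, the adaptor MAVS, the ubiquitin ligases TRAF3 and TRAF6, the kinases TBK1 and IKBKE, and the transcription factor IRF3. They were taken by symbol, through their Ensembl identifiers, from a table of 48898 genes, and all 10 were present and passed the filter on low counts in every comparison. RNA was sequenced from 48 libraries, 3 for each of 16 groups, of SK-MEL-103, a human melanoma cell line, and IMR-90, a human fetal lung fibroblast line. Doxorubicin, a DNA-damaging drug, was given at 200 nM for 48 h to drive the cells into senescence, a lasting stop of the cell cycle, and the medium was then kept free of drug. In both lines an siRNA had been transfected 1 day earlier against mitofusin 1 (siMFN1), mitofusin 2 (siMFN2), both mitofusins (siMFN1+2) or MAVS (siMAVS), or a control siRNA (siCtrl), and RNA was taken on day 7. Proliferating cells of each line received the control siRNA and no doxorubicin. In a separate IMR-90 experiment, cells 7 days after doxorubicin received either MFI8 (20 µM), or BI (10 µM), or only their solvent, DMSO, for 48 h, and RNA was taken on day 9, with proliferating cells in DMSO alongside. The study used MFI8 as an inhibitor and BI as an activator of mitofusins; the doses differ, and the compounds are known here by these code names only. The knockdowns were transient, each line is a single model of its tissue, and whether the 3 libraries of a group came from separate cultures is not stated, so p-values measure the spread between these libraries.

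RIG-I and MDA5 are helicases of the cytosol that bind double-stranded RNA, RIG-I preferring ends that carry a triphosphate and MDA5 long duplexes, and LGP2, which lacks the signalling domains, modulates both. TRIM25 attaches ubiquitin that helps RIG-I to signal, and the activated sensors make MAVS assemble into filaments on the outer membrane of mitochondria, where the mitofusins also sit. MAVS then recruits TRAF proteins, which engage the kinases TBK1 and IKKε (the product of IKBKE), and these phosphorylate IRF3, which enters the nucleus and switches on interferons and antiviral genes. The sensors themselves are known as interferon-induced genes in fibroblasts and other cells, so the pathway feeds back on its own receptors, and RNA or DNA that leaks from damaged mitochondria is a known trigger of innate sensing in senescent cells.

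Library depth ran from 15206115 to 79204217 counts and followed the replicate number, with 53390716 to 79204217 counts in the libraries numbered 1, 30176556 to 50828283 in those numbered 2 and 15206115 to 31127306 in those numbered 3. Of 8 fibroblast markers 3 reached 1 CPM (counts scaled to library size) in SK-MEL-103, with a summed level of 23.45 to 304.3 CPM, against all 8 and 7231 to 54860 CPM in IMR-90. Of 9 melanocyte markers 3 (MITF, SOX10 and NGFR) reached 1 CPM in SK-MEL-103, with a summed level of 581.4 to 2765 CPM, against 2 of 9 and 17.15 to 82.37 CPM in IMR-90, so most pigment-cell markers were at or near 0 in the melanoma line. NGFR (mean 1436 CPM) and SOX10 (546.5 CPM) carried the SK-MEL-103 sum, while MITF averaged 8.812 CPM in SK-MEL-103 and 45.64 CPM in IMR-90. Leukocyte markers, which would bring pathway transcripts of their own, summed to at most 3.588 CPM in any library. The silenced genes were low: MFN1 averaged 17.23 CPM under siMFN1 and 51.71 CPM under siCtrl in SK-MEL-103, and 7.672 and 51.43 CPM in IMR-90. MFN2 averaged 19.3 CPM under siMFN2 and 94.86 CPM under siCtrl in SK-MEL-103, and 18.26 and 167 CPM in IMR-90.

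RIGI, IFIH1, TRIM25 and MAVS are shown by the sequence around their transcription start, because they moved differently from each other and because interferon-induced genes often carry interferon-stimulated response elements, built on paired GAAA letters. The sequences run from 250 bases before to 20 bases after the start, on the strand of the gene, from RefSeq on GRCh38.p14; capitals mark every match to GAAA-NN-GAAA (the core of the response element) or to GAAA-N-GAAA (the same pair 1 base closer), on either strand.
RIGI, chr9:32526177-32526446, minus strand: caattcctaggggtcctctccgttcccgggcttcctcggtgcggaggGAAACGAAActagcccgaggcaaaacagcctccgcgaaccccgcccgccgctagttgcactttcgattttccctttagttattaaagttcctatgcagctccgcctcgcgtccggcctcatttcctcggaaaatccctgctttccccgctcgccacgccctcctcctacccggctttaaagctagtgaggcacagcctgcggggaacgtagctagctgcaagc
IFIH1, chr2:162318665-162318934, minus strand: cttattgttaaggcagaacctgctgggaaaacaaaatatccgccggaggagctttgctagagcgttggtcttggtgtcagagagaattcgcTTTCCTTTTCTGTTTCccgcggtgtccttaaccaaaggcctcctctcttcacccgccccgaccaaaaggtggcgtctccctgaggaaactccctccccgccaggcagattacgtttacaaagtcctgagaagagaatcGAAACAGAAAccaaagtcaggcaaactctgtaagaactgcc
TRIM25, chr17:56914030-56914299, minus strand: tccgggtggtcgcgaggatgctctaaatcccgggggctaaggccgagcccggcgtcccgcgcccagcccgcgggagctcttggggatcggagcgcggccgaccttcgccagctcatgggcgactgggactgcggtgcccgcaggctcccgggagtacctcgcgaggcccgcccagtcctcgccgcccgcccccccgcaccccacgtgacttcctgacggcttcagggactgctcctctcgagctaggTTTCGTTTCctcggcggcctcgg
MAVS, chr20:3846584-3846853, plus strand: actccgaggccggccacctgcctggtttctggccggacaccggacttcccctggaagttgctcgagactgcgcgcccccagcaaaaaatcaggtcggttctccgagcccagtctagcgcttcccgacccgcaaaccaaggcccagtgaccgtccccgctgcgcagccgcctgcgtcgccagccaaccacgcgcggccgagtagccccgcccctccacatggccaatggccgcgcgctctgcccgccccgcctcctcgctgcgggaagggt
The RIGI sequence held GAAACGAAA on the gene's strand, its first base 203 bases before the start. In IFIH1, TTTCCTTTTC and TTTCTGTTTC (the motif read on the opposite strand) overlapped by 4 letters, with first bases 159 and 153 bases before the start, and GAAACAGAAA began 21 bases before it. TRIM25 held TTTCGTTTC, also the opposite strand, its first base 3 bases before the start, and MAVS held no match. Among 35116 promoters of this length 3.3% held GAAA-NN-GAAA and 2.9% held GAAA-N-GAAA, the second motif having been chosen after the RIGI sequence was seen. Promoters of TBK1, IKBKE, TRAF3 and TRAF6 held neither motif, and none of the 8 promoters held TTCNNNGAA, the core of the interferon-gamma activated site, which 7.05% of all promoters held. A match is a description of these letters only, and DHX58 and IRF3 were not in the promoter table.

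In GENCODE 29 on GRCh38 all 10 are protein-coding genes. RIGI (ENSG00000107201) lies at chr9:32455705-32526324, IFIH1 (ENSG00000115267) at chr2:162267079-162318703, DHX58 (ENSG00000108771) at chr17:42101404-42112733 and TRIM25 (ENSG00000121060) at chr17:56836387-56914080, all on the minus strand. MAVS (ENSG00000088888) lies at chr20:3846799-3876123, TBK1 (ENSG00000183735) at chr12:64451880-64502108, IKBKE (ENSG00000263528) at chr1:206470476-206496889 and TRAF3 (ENSG00000131323) at chr14:102777476-102911500, on the plus strand. IRF3 (ENSG00000126456) at chr19:49659569-49665875 and TRAF6 (ENSG00000175104) at chr11:36487027-36510272 lie on the minus strand. Exons of BCL2L12 overlap 19.3% of the exon bases of IRF3 on the other strand, and AC135279.3 overlaps 14.7% of those of TBK1 on the other strand. The library kit marks strand but the strand setting of the counting is not given in the sources used here, so counts of IRF3 and TBK1 may hold reads of these neighbours.

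Per kilobase of exon, IRF3, MAVS and TRIM25 were the most abundant of the set in the control groups and the sensors IFIH1 and DHX58 the least. In SK-MEL-103 cells on doxorubicin and siCtrl the level was 21.27 CPM per kilobase for IRF3, 14.27 for MAVS, 10.5 for TRIM25, 7.42 for TBK1, 6.54 for RIGI, 5.59 for TRAF3, 4.561 for TRAF6, 3.453 for IKBKE, 2.143 for IFIH1 and 0.4095 for DHX58. IMR-90 cells on doxorubicin and siCtrl gave 13.16 CPM per kilobase for IRF3, 11.42 for TRIM25, 10.98 for MAVS and 9.486 for RIGI, with IFIH1 at 1.846 and DHX58 at 0.4853. RIGI ranked 4th of the 10 in those IMR-90 cells and 7th in the proliferating ones, where it stood at 4.671 CPM per kilobase.

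Across the 16 groups DHX58 varied the most and TRAF6 the least. On the CPM scale, the group means of DHX58 ran from 0.1231 in proliferating SK-MEL-103 cells to 1.926 in IMR-90 cells on BI, a ratio of 15.65. IFIH1 means ran from 2.781 CPM in IMR-90 cells on siMFN1+2 to 14.8 CPM on BI (ratio 5.322), and MAVS means from 45.45 CPM in IMR-90 cells on siMAVS to 212.6 CPM in proliferating IMR-90 cells on siCtrl (ratio 4.678). RIGI ran from 12.88 CPM in proliferating SK-MEL-103 cells to 45.92 CPM in IMR-90 cells on BI (ratio 3.565). The ratios were 2.724 for IKBKE, 2.238 for TRAF3, 2.156 for IRF3, 2.005 for TRIM25, 1.405 for TBK1 and 1.361 for TRAF6. Spread within a group was wide for IFIH1 and DHX58, with a median coefficient of variation of 25.94% and 25.69%, against 13.56% for RIGI, 11.69% for MAVS and 5.572% for TRAF6. With the groups ordered by mean, at most 2 of the 15 pairs of neighbours failed to overlap for any of the 10 genes, so most neighbours in these orders did not differ beyond their spread.

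**Figure D1:**
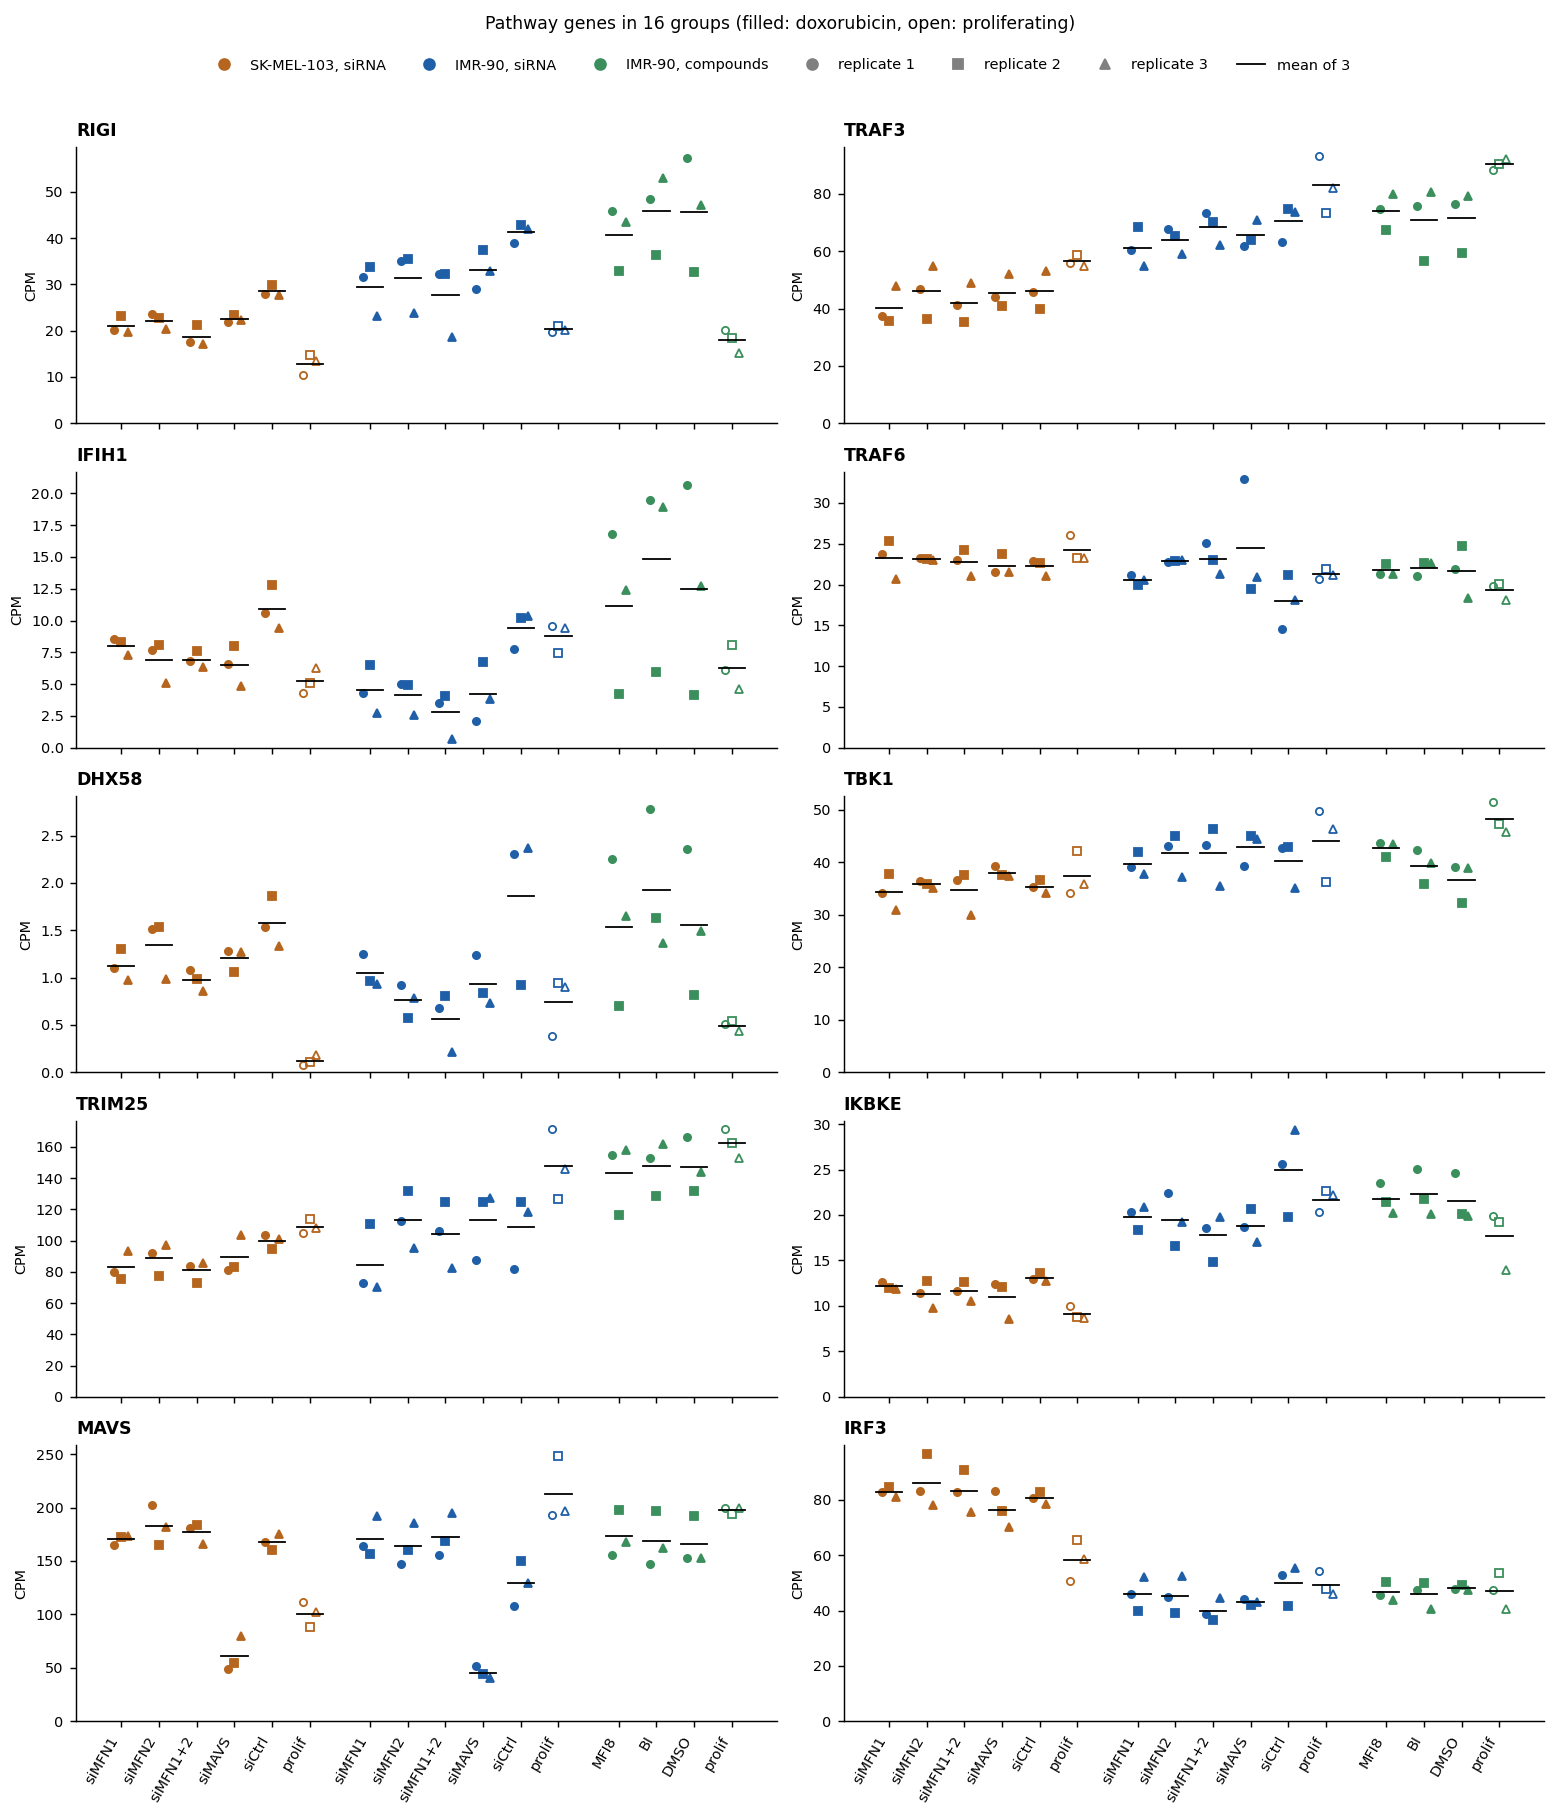
Level (CPM, each axis from 0) of the 10 pathway genes in the 48 libraries; points are libraries, with a marker shape for each replicate number, and the line is the mean of 3. RIGI and DHX58 are lowest in proliferating SK-MEL-103 cells, and MAVS is lowest under siMAVS, at 61.25 CPM in SK-MEL-103 and 45.45 CPM in IMR-90.

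The comparison of doxorubicin with proliferating cells asks what senescence did to the pathway. In SK-MEL-103 the 3 sensors rose, and so did MAVS, IKBKE and IRF3, while TRAF6 fell slightly, making 7 of 10 genes called, 6 higher and 1 lower, by edgeR's quasi-likelihood test at an adjusted p under 0.05. The same call took in 60.4% of all genes tested, so the count itself is near the background. The median log2 fold change was 0.40 over the 10 genes and 0.03 over all genes. Each value is a mean over all cells of a culture, so more responding cells and more RNA per cell cannot be told apart.

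DHX58 had 1.53, 1.86 and 1.33 CPM in SK-MEL-103 cells on doxorubicin, against 0.0808, 0.107 and 0.181 CPM in proliferating cells. Every doxorubicin library was above every proliferating one, and the proliferating group held 14 raw counts in all. DHX58 passed the filter on low counts through other groups, so it could only come out as higher on doxorubicin here. The log2 fold change was 3.76 (SE 0.32, adjusted p = 2.5e-08). RIGI had 27.9, 29.8 and 27.8 CPM on doxorubicin, against 10.4, 14.8 and 13.5 CPM in proliferating SK-MEL-103 cells, a log2 fold change of 1.06 (SE 0.13, adjusted p = 1.4e-06). IFIH1 had 10.6, 12.8 and 9.44 CPM on doxorubicin, against 4.33, 5.09 and 6.30 CPM in proliferating cells, a log2 fold change of 1.01 (SE 0.19, adjusted p = 0.00021). Both sensors stood apart between the groups in all libraries. MAVS had 168.0, 160.4 and 175.4 CPM on doxorubicin, against 111.6, 88.1 and 102.6 CPM in proliferating SK-MEL-103 cells, a log2 fold change of 0.64 (SE 0.15, adjusted p = 0.0015). The kinase gene IKBKE rose by 0.42 on the log2 scale (adjusted p = 0.0081), averaging 13.1 ± 0.433 CPM on doxorubicin and 9.14 ± 0.728 CPM in proliferating cells (SD, n = 3 each). IRF3 averaged 80.7 ± 2.28 CPM on doxorubicin and 58.3 ± 7.47 CPM in proliferating cells (SD, n = 3 each), a log2 fold change of 0.37 (adjusted p = 0.0029).

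The other signalling genes gave small differences in SK-MEL-103. TRAF6, which links MAVS to NF-κB kinases, had 22.9, 22.7 and 21.1 CPM on doxorubicin, against 26.1, 23.3 and 23.3 CPM in proliferating cells. Its log2 fold change of -0.22 (adjusted p = 0.045) lost the call without any 1 of the 3 doxorubicin libraries or without proliferating library 1, the adjusted p then reaching 0.14, and in 3 other alternatives, where it reached 0.33. TRAF3 gave -0.39 (adjusted p = 0.056), and TRIM25 and TBK1 gave -0.22 and -0.18 on the log2 scale, not called.

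In IMR-90 the same comparison called 3 of 10 genes, RIGI and DHX58 higher and MAVS lower, where 51.8% of all genes were called. The median log2 fold change was -0.03 over the 10 genes and 0.09 over all genes. RIGI had 39.0, 42.9 and 42.0 CPM on doxorubicin, against 19.7, 21.1 and 20.2 CPM in proliferating IMR-90 cells, a log2 fold change of 1.05 (SE 0.20, adjusted p = 0.00061). Both groups were tight and did not overlap. DHX58 had 2.31, 0.919 and 2.37 CPM on doxorubicin, against 0.381, 0.943 and 0.904 CPM in proliferating cells. The second doxorubicin library lay inside the proliferating range, and the log2 fold change of 1.47 (SE 0.43, adjusted p = 0.0099) was no longer called without doxorubicin library 1 or proliferating library 1, where the adjusted p reached 0.088. MAVS had 108.0, 150.1 and 129.6 CPM on doxorubicin, against 193.0, 247.9 and 196.8 CPM in proliferating IMR-90 cells. All 3 doxorubicin libraries were below all 3 proliferating ones, at a log2 fold change of -0.69 (SE 0.15, adjusted p = 0.0018).

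IFIH1 overlapped between these IMR-90 groups, with 7.76, 10.2 and 10.3 CPM on doxorubicin, against 9.57, 7.42 and 9.38 CPM in proliferating cells, a log2 fold change of 0.13 (SE 0.42, adjusted p = 0.82). The ligase TRIM25 gave -0.42 (adjusted p = 0.13), with the first doxorubicin library lowest at 82.0 CPM. IKBKE at 0.23, IRF3 at 0.05, TBK1 at -0.10, TRAF3 at -0.20 and TRAF6 at -0.21 on the log2 scale were not called.

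The doxorubicin effect differed between the lines for MAVS and DHX58. In a test of the difference itself, 2 of 10 genes were called, where 22.2% of all genes were. The melanoma effect less the fibroblast effect was 1.42 on the log2 scale for MAVS (SE 0.22, adjusted p = 2.8e-05), which rose in the melanoma line and fell in the fibroblasts. For DHX58 the difference was 2.36 (SE 0.63, adjusted p = 0.0073), from a proliferating level in SK-MEL-103 near the lower limit of detection. IFIH1 gave 0.96 (SE 0.47, adjusted p = 0.15) and IRF3 0.42 (SE 0.17, adjusted p = 0.078), both short of the call. For RIGI the difference was 0.10 (SE 0.24, adjusted p = 0.84), with log2 effects of 1.06 in SK-MEL-103 and 1.05 in IMR-90.

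**Figure D2:**
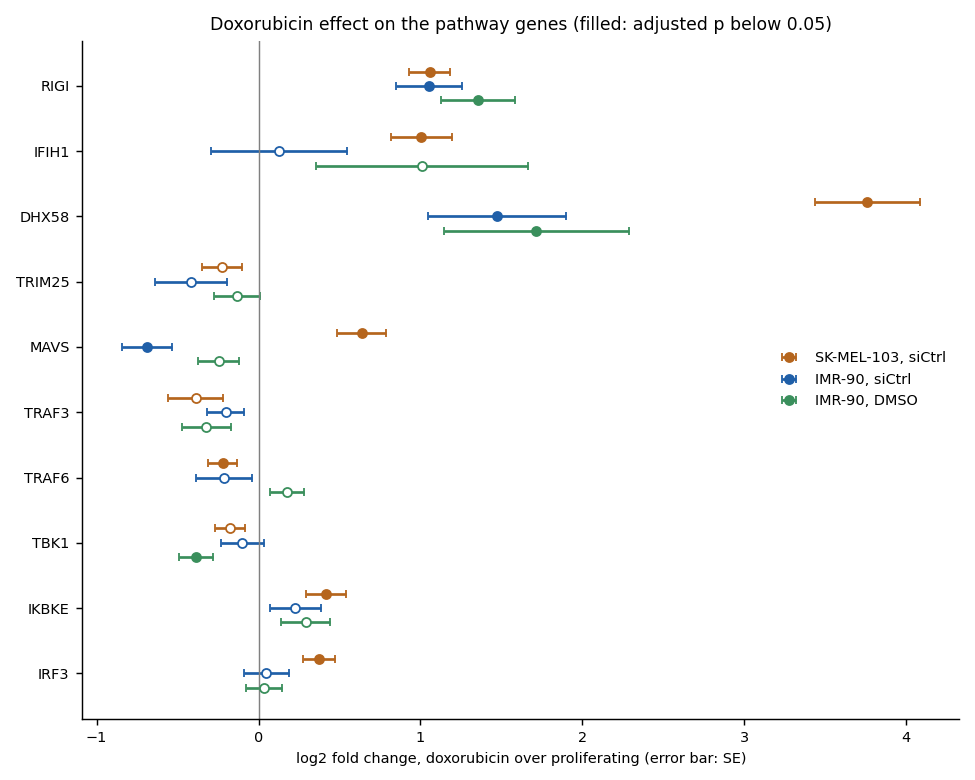
Log2 fold change, doxorubicin over proliferating, with its SE, of the 10 pathway genes in 3 comparisons: SK-MEL-103 with siCtrl, IMR-90 with siCtrl and IMR-90 in DMSO. RIGI lies at 1.06, 1.05 and 1.36, while MAVS lies at 0.64 in SK-MEL-103 and at -0.69 and -0.25 in IMR-90.

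The second IMR-90 experiment gave the doxorubicin comparison again, 2 days later and in DMSO. RIGI and DHX58 rose and TBK1 fell, 3 of 10 genes called where 55.9% of all genes were, with a median log2 fold change of 0.11 over the 10 genes and 0.10 over all genes. RIGI had 57.3, 32.7 and 47.1 CPM in doxorubicin cells, against 20.2, 18.4 and 15.1 CPM in proliferating cells, a log2 fold change of 1.36 (SE 0.23, adjusted p = 0.00058). The lowest doxorubicin library was still above the highest proliferating one. DHX58 had 2.36, 0.813 and 1.495 CPM in doxorubicin cells, against 0.506, 0.540 and 0.434 CPM in proliferating cells, a log2 fold change of 1.72 (SE 0.57, adjusted p = 0.025). That call was lost without doxorubicin library 1 or without any 1 of the 3 proliferating libraries, the adjusted p reaching 0.21. TBK1, the kinase of IRF3, had 39.0, 32.2 and 38.8 CPM in doxorubicin cells, against 51.5, 47.3 and 45.8 CPM in proliferating cells, a log2 fold change of -0.39 (adjusted p = 0.0097).

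IFIH1 split by library in this experiment: it had 20.7, 4.11 and 12.7 CPM in doxorubicin cells, against 6.15, 8.06 and 4.63 CPM in proliferating cells. Doxorubicin library 2 was below every proliferating library and the other two were above them all, and the log2 fold change of 1.01 had an SE of 0.65 (adjusted p = 0.21). MAVS had 152.5, 192.1 and 153.2 CPM in doxorubicin cells, against 200.0, 193.9 and 199.3 CPM in proliferating cells, a log2 fold change of -0.25 (adjusted p = 0.12). With the replicate number as a block in the fit of all groups of the experiment, 6 of 10 genes were called where 69.7% of all genes were. RIGI (1.32, adjusted p = 4.1e-05), DHX58 (1.71, adjusted p = 0.0017) and IKBKE (0.29, adjusted p = 0.018) were higher in that fit, and MAVS (-0.26, adjusted p = 0.018), TBK1 (-0.39, adjusted p = 0.00089) and TRAF3 (-0.34, adjusted p = 0.01) lower. With the block on the 6 libraries of the comparison alone, RIGI, DHX58 and TBK1 were called, where 57.5% of all genes were.

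Each line was its own siRNA experiment, so for differences in level the line and the culture series cannot be told apart. Between the lines, 5 of 10 genes were lower and none higher in proliferating SK-MEL-103 cells than in proliferating IMR-90 cells, a share near the 51.8% of all genes called in either direction. DHX58 averaged 0.123 ± 0.0522 CPM in SK-MEL-103 and 0.743 ± 0.314 CPM in IMR-90 (SD, n = 3 each), a log2 fold change of -2.56 (SE 0.55, adjusted p = 0.00027). IKBKE averaged 9.14 ± 0.728 CPM in SK-MEL-103 and 21.7 ± 1.23 CPM in IMR-90 (SD, n = 3 each), a log2 fold change of -1.20 (adjusted p = 8.7e-08). MAVS (-1.04, adjusted p = 1.8e-06), RIGI (-0.62, adjusted p = 0.0038) and TRAF3 (-0.52, adjusted p = 0.0043) were the other three. On doxorubicin and siCtrl, 6 of 10 genes differed between the lines, where 63.4% of all genes did. IRF3 was higher in SK-MEL-103 (0.70, adjusted p = 1.4e-05), as were MAVS (0.39, adjusted p = 0.029) and TRAF6 (0.32, adjusted p = 0.047). IKBKE (-0.92, adjusted p = 3.8e-06), TRAF3 (-0.61, adjusted p = 8e-04) and RIGI (-0.53, adjusted p = 0.0084) were lower in SK-MEL-103. The MAVS call was lost in 5 of 11 alternatives: with DESeq2, with its size factors, and without IMR-90 doxorubicin library 1 or 3 or SK-MEL-103 doxorubicin library 3, to an adjusted p of up to 0.15. The TRAF6 groups overlapped, and its call was lost in 8 of 11 alternatives, among them DESeq2 and the fits without library 1 or 3 of IMR-90 or library 1 or 2 of SK-MEL-103 on doxorubicin, to an adjusted p of up to 0.27.

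The siRNA against MAVS asks what the loss of the adaptor does in senescent cells, and it left MAVS mRNA at 36.47% of the siCtrl mean in SK-MEL-103 and 35.17% in IMR-90. MAVS had 48.9, 54.8 and 80.0 CPM under siMAVS, against 168.0, 160.4 and 175.4 CPM under siCtrl in SK-MEL-103, a log2 fold change of -1.42 (SE 0.15, adjusted p = 0.00018). Library 3 of siMAVS kept the most, 47.66% of the siCtrl mean. In IMR-90 MAVS had 51.3, 44.4 and 40.7 CPM under siMAVS, against 108.0, 150.1 and 129.6 CPM under siCtrl, a log2 fold change of -1.52 (SE 0.16, adjusted p = 0.0011). MAVS was the 1 gene of 10 called in each line, where 0.1% of all genes were called in SK-MEL-103 and 0.634% in IMR-90. In fits on the 6 libraries of the comparison alone, for MAVS log2 fold change, the adjusted p was 0.096 in SK-MEL-103 and 0.17 in IMR-90 and the call was lost.

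The sensors were lower under siMAVS in their values and missed the test. The share of all genes without overlap was not counted, so lack of overlap is given here as a description only. IFIH1 had 6.58, 8.01 and 4.85 CPM under siMAVS, against 10.6, 12.8 and 9.44 CPM under siCtrl in SK-MEL-103, without overlap, a log2 fold change of -0.72 (SE 0.19, adjusted p = 0.55). In IMR-90 it had 2.14, 6.70 and 3.80 CPM under siMAVS, against 7.76, 10.2 and 10.3 CPM under siCtrl, also without overlap, a log2 fold change of -1.18 (SE 0.43, adjusted p = 0.21). RIGI had 21.8, 23.4 and 22.4 CPM under siMAVS, against 27.9, 29.8 and 27.8 CPM under siCtrl in SK-MEL-103, and 29.1, 37.3 and 32.8 CPM against 39.0, 42.9 and 42.0 CPM in IMR-90. The siMAVS libraries were all below the siCtrl ones in both lines, at log2 fold changes of -0.31 (adjusted p = 1) and -0.34 (adjusted p = 0.46). DHX58 gave -0.36 in SK-MEL-103 and -0.96 (adjusted p = 0.27) in IMR-90. TRAF6 was at 32.9 CPM in the first siMAVS library of IMR-90 and at 19.5 and 21.0 CPM in the other two, against 14.6, 21.2 and 18.1 CPM under siCtrl (log2 fold change 0.43, adjusted p = 0.24). All 4 knockdowns of a line were set against the same 3 siCtrl libraries.

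The siRNAs against the mitofusins ask whether the membrane partners of MAVS bear on the pathway. By edgeR with all groups of a line in 1 fit and no replicate block, none of the 10 genes was called under any of them. The background was 0.123% of all genes for siMFN1, 0.0669% for siMFN2 and 0.240% for siMFN1+2 in SK-MEL-103, and 1.58%, 0.225% and 1.57% for the same siRNAs in IMR-90. By edgeR at an unadjusted p under 0.05 there were 3 genes for siMFN1, 2 for siMFN2 and 4 for siMFN1+2 in SK-MEL-103, and 3, 4 and 6 in IMR-90. Over all genes 1028, 615 and 738 of 17945 passed that unadjusted threshold in SK-MEL-103. In IMR-90 2999, 2569 and 3124 of 19077 passed it, in the same order. DESeq2 called RIGI under siMFN1+2 in SK-MEL-103 and IFIH1 and DHX58 under siMFN1+2 in IMR-90, and no gene of the 10 in the other knockdowns of mitofusins. Over all genes DESeq2 called 47, 21 and 69 for siMFN1, siMFN2 and siMFN1+2 in SK-MEL-103. In IMR-90 it called 852, 327 and 871 in that order.

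RIGI was lower in every mitofusin knockdown library than in every siCtrl library of its line. How many of all genes separated in this way was not counted. Lack of overlap under the mitofusin siRNAs, for RIGI, IFIH1 and DHX58 alike, is therefore a description without a background. In SK-MEL-103 it had 17.5, 21.2 and 17.0 CPM under siMFN1+2, against 27.9, 29.8 and 27.8 CPM under siCtrl, a log2 fold change of -0.59 (SE 0.12, adjusted p = 0.063). It had 20.2, 23.2 and 19.7 CPM under siMFN1 and 23.5, 22.6 and 20.3 CPM under siMFN2, at log2 fold changes of -0.43 (adjusted p = 0.49) and -0.35 (adjusted p = 1). In IMR-90 RIGI had 32.3, 32.2 and 18.6 CPM under siMFN1+2, against 39.0, 42.9 and 42.0 CPM under siCtrl, a log2 fold change of -0.57 (SE 0.20, adjusted p = 0.17). The third library was the lowest of its group there and also under siMFN1 (31.7, 33.8 and 23.1 CPM) and siMFN2 (35.0, 35.4 and 23.8 CPM). The third siCtrl library was not low. In the sample labels the third mitofusin siRNA and siCtrl libraries of IMR-90 carry serial numbers apart from those of the earlier libraries. What these serial numbers mark is not stated.

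IFIH1 was also lowest in the third library of each mitofusin knockdown. In IMR-90 it had 3.53, 4.10 and 0.719 CPM under siMFN1+2, against 7.76, 10.2 and 10.3 CPM under siCtrl, a log2 fold change of -1.62 (SE 0.45, adjusted p = 0.080). It had 4.30, 6.47 and 2.73 CPM under siMFN1 (log2 fold change -1.04, adjusted p = 0.25) and 4.995, 4.93 and 2.58 CPM under siMFN2 (-1.15, adjusted p = 0.26). None of these libraries reached the lowest siCtrl library of IMR-90. In SK-MEL-103 IFIH1 had 6.82, 7.64 and 6.33 CPM under siMFN1+2, 8.52, 8.31 and 7.28 CPM under siMFN1 and 7.66, 8.09 and 5.06 CPM under siMFN2, against 10.6, 12.8 and 9.44 CPM under siCtrl. The log2 fold changes were -0.63 (adjusted p = 0.44), -0.43 (adjusted p = 0.79) and -0.63 (adjusted p = 0.82), again without overlap.

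DHX58, the third sensor, had 0.678, 0.811 and 0.216 CPM under siMFN1+2, against 2.31, 0.919 and 2.37 CPM under siCtrl in IMR-90, a log2 fold change of -1.49 (SE 0.43, adjusted p = 0.093). In SK-MEL-103 it had 1.08, 0.982 and 0.854 CPM under siMFN1+2, against 1.53, 1.86 and 1.33 CPM under siCtrl, a log2 fold change of -0.64 (adjusted p = 0.56). Neither pair of groups overlapped. In IMR-90 the third siMFN1+2 library held only 3 raw counts of DHX58 and 10 of IFIH1, so these values lie near the lower limit of detection. MAVS itself was not lower: in IMR-90 it had 155.4, 168.5 and 194.5 CPM under siMFN1+2, against 108.0, 150.1 and 129.6 CPM under siCtrl, a log2 fold change of 0.42 (adjusted p = 0.19), and in SK-MEL-103 the 3 mitofusin knockdowns gave 0.03, 0.14 and 0.10.

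**Figure D3:**
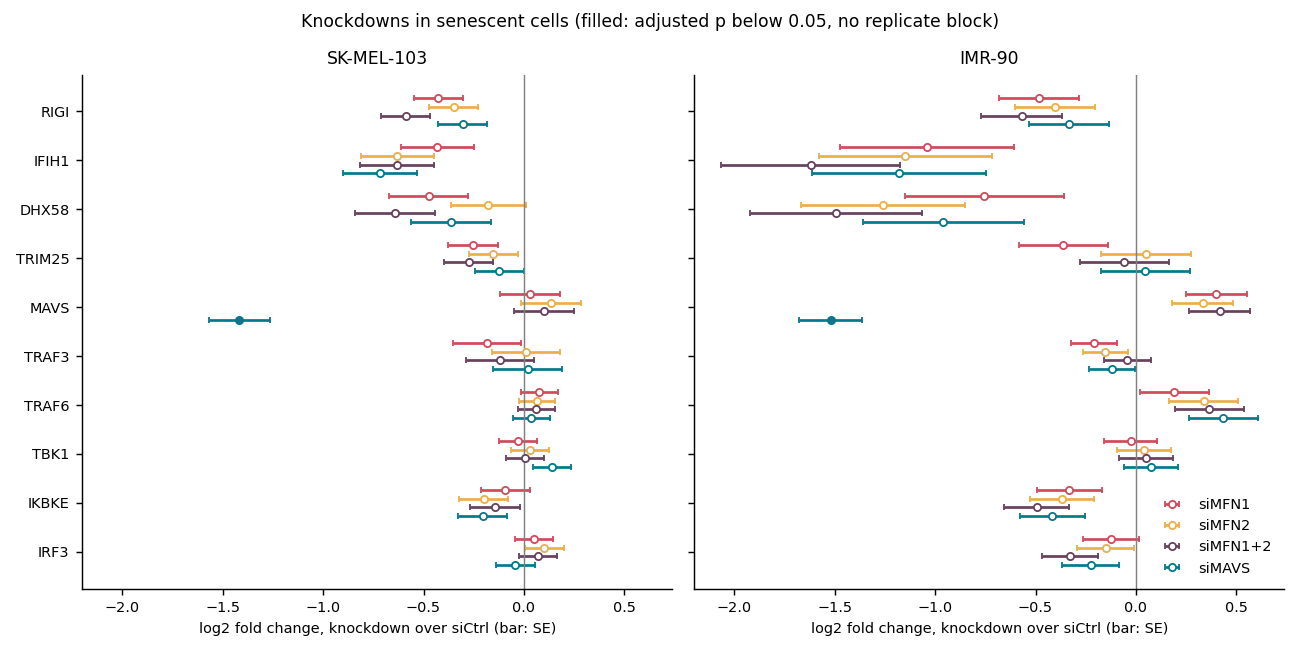
Log2 fold change, knockdown over siCtrl, with its SE, of the 10 pathway genes in doxorubicin-treated SK-MEL-103 and IMR-90 cells, in fits without a replicate block. MAVS under siMAVS is the filled point in each panel, and RIGI, IFIH1 and DHX58 lie below 0 in all 4 knockdowns of both lines, from -1.62 for IFIH1 under siMFN1+2 in IMR-90 to -0.18 for DHX58 under siMFN2 in SK-MEL-103.

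Libraries with the same number deviated together in most knockdown comparisons. Under the mitofusin siRNAs, a fit on the libraries of 1 comparison with the number as a block called more genes. In IMR-90 siMFN1+2 it called 6 of 10 genes, where 18% of all genes were called: IFIH1 (-1.64, adjusted p = 0.0081), DHX58 (-1.40, adjusted p = 0.037), RIGI (-0.60, adjusted p = 0.027), IKBKE (-0.48, adjusted p = 0.013) and IRF3 (-0.33, adjusted p = 0.046) were lower and MAVS (0.42, adjusted p = 0.022) higher. For siMFN1 in IMR-90 it called 3 of 10, where 17.9% of all genes were: IFIH1 (-1.05, adjusted p = 0.0084) and RIGI (-0.49, adjusted p = 0.026) lower and MAVS (0.41, adjusted p = 0.043) higher. For siMFN2 in IMR-90 it called IFIH1 (-1.14, adjusted p = 0.01) and DHX58 (-1.24, adjusted p = 0.013), where 14.8% of all genes were called. IFIH1 was called in all 3 of these fits, RIGI in those of siMFN1+2 and siMFN1 and DHX58 in those of siMFN1+2 and siMFN2, each lower, and MAVS was called higher in those of siMFN1+2 and siMFN1.

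In SK-MEL-103 siMFN1+2 the blocked fit called 4 of 10 genes, where 8.49% of all genes were called: RIGI (-0.60, adjusted p = 4.8e-06), IFIH1 (-0.65, adjusted p = 5e-05), DHX58 (-0.66, adjusted p = 0.037) and TRIM25 (-0.28, adjusted p = 0.0012), all lower. For siMFN1 it also called 4, where 19.0% of all genes were: RIGI (-0.42, adjusted p = 7.4e-05), IFIH1 (-0.42, adjusted p = 0.0022), TRIM25 (-0.26, adjusted p = 0.0023) and TRAF3 (-0.19, adjusted p = 0.014). For siMAVS the blocked fit called 1 of 10, MAVS itself and no sensor, where 0.0604% of all genes were called. With the block in the fit of all groups of a line, siMFN1+2 called 1 gene in each: RIGI in SK-MEL-103 (-0.59, adjusted p = 0.0064, where 0.292% of all genes were called) and IFIH1 in IMR-90 (-1.71, adjusted p = 0.043, where 3.62% were). TRIM25, which activates RIG-I by ubiquitin, had 84.0, 73.1 and 85.8 CPM under siMFN1+2, against 103.5, 94.7 and 101.1 CPM under siCtrl in SK-MEL-103, without overlap.

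**Figure D4:**
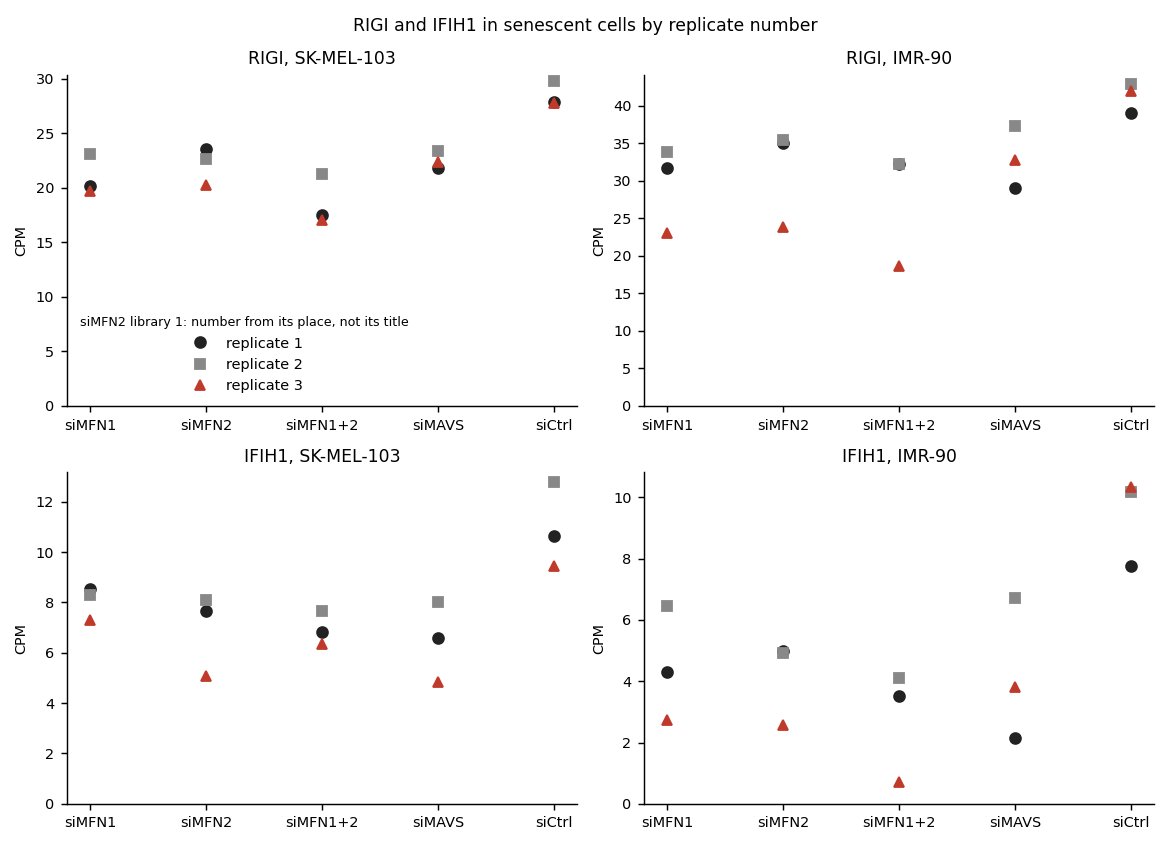
RIGI and IFIH1 (CPM, axes from 0) in doxorubicin-treated cells by replicate number, knockdowns left of siCtrl; SK-MEL-103 siMFN2 library 1 carries no number in its title. In IMR-90 the libraries numbered 3 are lowest under each mitofusin siRNA (18.6 CPM for RIGI and 0.719 CPM for IFIH1 under siMFN1+2) and not under siCtrl. The IFIH1 level of 0.719 CPM rests on 10 raw counts.

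No difference between the lines in a knockdown effect was called for the 10 genes by edgeR or by DESeq2. The background was 0.153% of all genes for siMFN1, 0.0431% for siMFN2, 0.144% for siMFN1+2 and 0.0431% for siMAVS. At an unadjusted p under 0.05 by edgeR there were 0, 1, 1 and 1 genes in that order. Over all 20892 genes 1931, 1295, 1854 and 1610 passed the same unadjusted threshold. The SK-MEL-103 effect less the IMR-90 effect on RIGI was 0.05 for siMFN1, 0.04 for siMFN2, -0.04 for siMFN1+2 and 0.00 for siMAVS on the log2 scale. For IFIH1 the differences were 0.60, 0.49, 0.96 and 0.43, the value being the more negative one in IMR-90 each time. The silencing itself was not equal between the lines. By edgeR the MFN2 effect was weaker in SK-MEL-103, by 0.91 under siMFN2 (adjusted p = 0.017) and 1.05 under siMFN1+2 (adjusted p = 0.0029). The call under siMFN2 was lost in 6 of 12 fits without 1 library. The lines were thus not compared at equal knockdown.

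MFI8 and BI, given to senescent IMR-90 cells, left no gene called against DMSO. MFI8 against BI was fitted too, without a call, but their doses differ and only their values are set side by side here. The background was 0% of 19056 genes in all 3 comparisons. By edgeR 371 genes had an unadjusted p under 0.05 for MFI8, 175 for BI and 326 for MFI8 against BI, none of them among the 10, and DESeq2 called 1, 0 and 0 genes in all and none of the 10. RIGI had 45.8, 32.9 and 43.5 CPM on MFI8 and 48.5, 36.3 and 53.0 CPM on BI, against 57.3, 32.7 and 47.1 CPM on DMSO. The log2 difference was -0.16 for MFI8 over DMSO (interval of 2 SE, -0.61 to 0.28) and 0.01 for BI over DMSO (-0.44 to 0.45), so changes of that size in either direction remain possible. IFIH1 had 16.8, 4.20 and 12.4 CPM on MFI8 and 19.5, 5.98 and 19.0 CPM on BI, against 20.7, 4.11 and 12.7 CPM on DMSO. Library 2 was the lowest in all 3 groups, and the intervals were wide, -1.44 to 1.09 for MFI8 and -1.04 to 1.49 for BI.

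MAVS had 155.9, 197.6 and 167.9 CPM on MFI8 and 147.6, 196.9 and 162.3 CPM on BI, against 152.5, 192.1 and 153.2 CPM on DMSO. Its log2 difference was 0.07 (-0.18 to 0.32) for MFI8 and 0.03 (-0.22 to 0.28) for BI. TBK1 had 43.6, 41.0 and 43.5 CPM on MFI8, against 39.0, 32.2 and 38.8 CPM on DMSO, at a log2 difference of 0.22 (0.01 to 0.43, adjusted p = 1). These TBK1 values did not overlap, but how many of all genes separated in this way was not counted, so nothing is read from it. With the replicate block, which these libraries bear out, none of the 10 was called either, where 2.75% of all genes were called for MFI8, 3.84% for BI and 0.539% for MFI8 against BI.

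Downstream of IRF3, a list of 18 interferon genes and antiviral targets was followed. The interferon genes were almost unread: over all 48 libraries IFNB1 had 9 counts, IFNL1 15, IFNL2 2 and IFNL3 2. On doxorubicin the called antiviral targets were all higher in both lines. Only part of the 18 genes passed the filter on low counts. Targets near 0 in proliferating cells passed it through the doxorubicin groups and could only come out as higher. The counts and medians on doxorubicin are thus partly set by that filter. In SK-MEL-103 8 of 10 tested genes were higher and none lower, where 60.4% of all genes were called, with a median log2 fold change of 1.86 against 0.03 over all genes. They were IFI44L, IFIT1, IFIT2, IFIT3, ISG15, OAS1, OASL and RSAD2. IFIT1, which binds foreign RNA caps, averaged 31.1 ± 6.87 CPM on doxorubicin and 3.03 ± 0.736 CPM in proliferating SK-MEL-103 cells (SD, n = 3 each), a log2 fold change of 3.23 (adjusted p = 9.9e-09). RSAD2 (viperin) averaged 1.33 ± 0.451 CPM on doxorubicin and 0.0268 ± 0.0335 CPM in proliferating cells (SD, n = 3 each), where it was too sparse for a fold.

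In IMR-90 7 of 13 tested targets were higher on doxorubicin and none lower (median 1.56, against 0.09 over all genes), a share near the 51.8% of all genes called in either direction. They were CXCL10, CXCL11, IFI44L, IFIT2, ISG15, OAS1 and RSAD2. CXCL10, a chemokine that draws T cells, averaged 14.4 ± 4.74 CPM on doxorubicin and 0.480 ± 0.289 CPM in proliferating cells (SD, n = 3 each), a log2 fold change of 5.07 (SE 0.99, adjusted p = 0.00066). The difference between the lines was called for IFIT1 (3.00, adjusted p = 0.00013) and IFIT3 (1.80, adjusted p = 0.0034), both larger in SK-MEL-103. In the DMSO experiment 11 of 14 were higher on doxorubicin and none lower, where 55.9% of all genes were called (median 2.81, against 0.10 over all genes). That count was 5 without doxorubicin library 1 or proliferating library 1 or 3, and 7 without proliferating library 2.

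Under the knockdowns in SK-MEL-103 some of the 10 targets fell and the rest were not called. Targets near 0 under a knockdown, such as RSAD2, passed the filter on low counts through other groups. They could only come out as lower. Under siMAVS 6 of 10 were lower and none higher (median -1.30), where 0.1% of all genes were called. There were also 6 under siMFN1+2 (median -1.38, 0.240% of all genes) and 6 under siMFN1 (median -1.09, 0.123% of all genes), with 4 of 10 under siMFN2 (median -0.85, 0.0669% of all genes). IFI44L, an interferon-induced gene, averaged 0.183 ± 0.0753 CPM under siMAVS and 2.74 ± 0.766 CPM under siCtrl (SD, n = 3 each), a log2 fold change of -3.74 (adjusted p = 0.00018). RSAD2 averaged 0.117 CPM under siMAVS, 0.114 CPM under siMFN1+2, 0.241 CPM under siMFN1 and 0.368 CPM under siMFN2, against 1.33 CPM under siCtrl. Its log2 fold changes were -3.44 (adjusted p = 9.8e-05), -3.57 (adjusted p = 2.8e-05), -2.50 (adjusted p = 0.00054) and -1.70 (adjusted p = 0.019) in the same order, the last lost in 4 of 6 fits without 1 library. Leaving out each library in turn gave 5 to 6 for siMAVS and 6 for siMFN1+2, and a fit on the 6 libraries of siMAVS and siCtrl alone gave 3. For siMFN1 the count was 3 without siCtrl library 1 or siMFN1 library 2 and 2 without siMFN1 library 1. For siMFN2 it was 0 without siCtrl library 1 or 2 or siMFN2 library 3 and 1 without siMFN2 library 1 or 2.

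In IMR-90 13 of these targets were tested. Here too, targets near 0 under a knockdown, such as OAS1 under siMFN1+2, passed the filter on low counts through other groups. They could only come out as lower. Under siMFN1+2 3 of 13 were lower (IFI44, OAS1 and RSAD2; median -1.87), under siMAVS 1 of 13 (IFI44L; median -1.31), and none under siMFN1 (median -0.57) or siMFN2 (median -1.32), where 1.57%, 0.634%, 1.58% and 0.225% of all genes were called in that order. At the same siRNAs the SK-MEL-103 medians were -1.38, -1.30, -1.09 and -0.85, over 10 tested genes. OAS1, which makes the activator of RNase L, averaged 0.0917 ± 0.0810 CPM under siMFN1+2 and 2.04 ± 1.67 CPM under siCtrl (SD, n = 3 each), a log2 fold change of -3.95 (SE 0.92, adjusted p = 0.043). The siMFN1+2 count was 0 without any 1 library other than siCtrl library 2, and 8 with the replicate block on the libraries of the comparison. The siMAVS count was 0 without siMAVS library 3 and 2 without siMAVS library 2. For siMFN2 DESeq2 called 1 target and the blocked fit 6, and for siMFN1 the blocked fit called 3, all lower. Over all genes DESeq2 called 327 for siMFN2, and the blocked fits called 14.8% for siMFN2 and 17.9% for siMFN1. Of the differences between the lines 1 was called, IFI44L under siMFN1, and it was lost without siCtrl library 1 of either line or siMFN1 library 2 or 3 of SK-MEL-103. Without siCtrl library 3 of IMR-90 these differences numbered 2 for siMFN1, 2 for siMAVS and 1 for siMFN1+2. The compounds called none (medians -0.24 for MFI8 and 0.10 for BI over DMSO), while the blocked fits called CXCL10 and ISG15, lower on MFI8 and higher on BI than on DMSO. Those fits called 2.75% of all genes for MFI8 and 3.84% for BI.

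**Figure D5:**
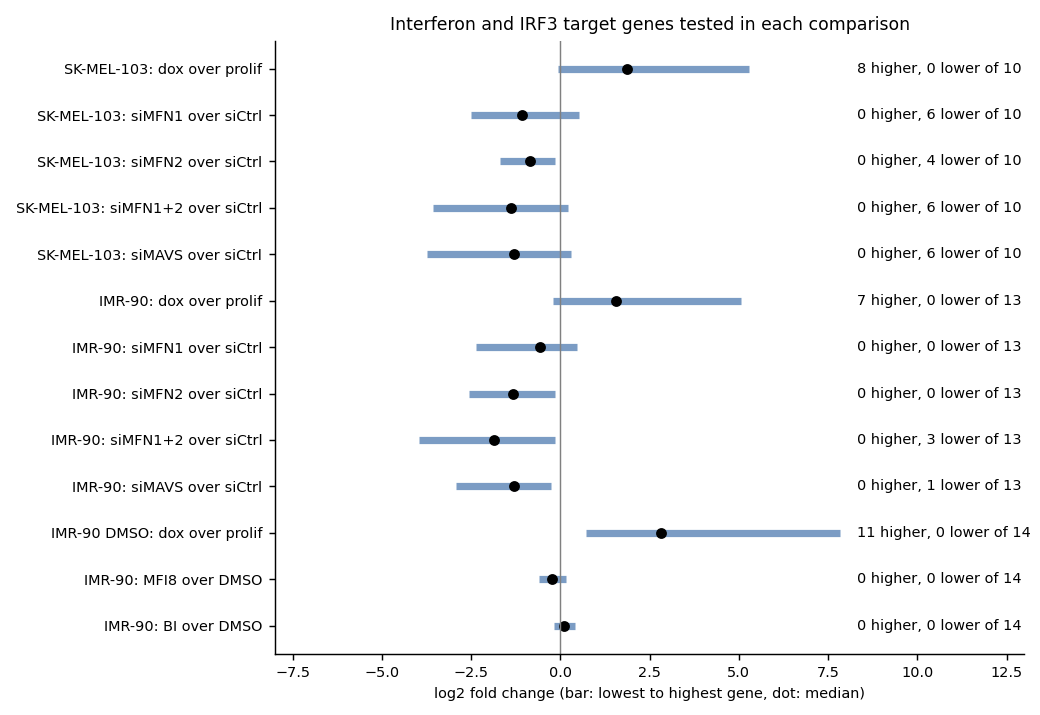
Log2 fold changes of the tested interferon and IRF3 target genes in 13 comparisons; bars run from the lowest to the highest gene, dots are medians, and the counts at the right are genes past an adjusted p of 0.05. The medians lie at 1.86, 1.56 and 2.81 on doxorubicin over proliferating cells and between -1.87 and -0.57 under the siRNAs; the highest value, in DMSO, belongs to a gene with nearly no counts in proliferating cells.

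Of 18 cofactors and ubiquitin enzymes of RIG-I and MDA5, 4 were higher and 10 lower on doxorubicin in SK-MEL-103 (median log2 fold change -0.31), where 60.4% of all genes were called in either direction (median 0.03). In IMR-90 2 were higher and 10 lower with siCtrl (median -0.34, against 0.09 and 51.8% of all genes called) and 3 and 9 in DMSO (median -0.26, against 0.10 and 55.9%). None of the lists was tested as a list. DHX15, a helicase that assists RNA sensing, averaged 76.7 ± 2.30 CPM on doxorubicin and 177.8 ± 21.9 CPM in proliferating SK-MEL-103 cells (SD, n = 3 each; log2 fold change -1.31, adjusted p = 1.1e-09). G3BP1, a stress-granule protein, gave -1.21, and the deubiquitinase OTUD5 and the deacetylase HDAC6 gave 0.60 and 0.72 in SK-MEL-103. PPP1CC, a phosphatase subunit that activates RIG-I and MDA5, averaged 89.2 ± 15.5 CPM on doxorubicin and 257.7 ± 54.6 CPM in proliferating IMR-90 cells (SD, n = 3 each; log2 fold change -1.5, adjusted p = 4.1e-06). The deubiquitinase CYLD rose in IMR-90, by 0.55 with siCtrl and 0.73 in DMSO on the log2 scale. Under the knockdowns 1 gene of this list was called, the phosphatase gene PPP1CA under siMFN1 in IMR-90 (-0.56, adjusted p = 0.029), lost in 5 of 6 fits without 1 library.

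Among partners and limits of MAVS on the outer membrane, 5 of 24 tested genes were higher and 10 lower in SK-MEL-103 (median -0.25), 3 and 9 in IMR-90 with siCtrl (median -0.29) and 3 and 12 in DMSO (median -0.28). Their called shares lay near those of all genes in the same comparisons, 60.4%, 51.8% and 55.9%. NLRX1, a mitochondrial protein described as a brake on MAVS, averaged 10.3 ± 1.10 CPM on doxorubicin and 3.64 ± 1.65 CPM in proliferating SK-MEL-103 cells (SD, n = 3 each; log2 fold change 1.32, adjusted p = 1.7e-05). It gave 0.77 (adjusted p = 0.00079) and 1.23 (adjusted p = 4.5e-06) in the 2 IMR-90 comparisons, and the death-domain adaptor TRADD gave 0.64 in SK-MEL-103 and 0.70 and 0.71 in IMR-90, where its calls were lost in 2 of 6 and 4 of 6 fits without 1 library. PLK1, a kinase of dividing cells that also binds MAVS, averaged 1.79 ± 0.312 CPM on doxorubicin and 103.6 ± 28.3 CPM in proliferating SK-MEL-103 cells (SD, n = 3 each), a log2 fold change of -5.97. In IMR-90 it gave -4.25 with siCtrl and -3.68 in DMSO. TRAF2 fell in SK-MEL-103 (-1.35), and TRIM14, which docks at MAVS, fell in IMR-90 with siCtrl (-1.70, adjusted p = 0.00051). Under the knockdowns the genes of this list that were called were the silenced MFN1 and MFN2.

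Of the kinase adaptors, NF-κB kinases and transcription factors, 6 of 16 were higher and 5 lower in SK-MEL-103 (median 0.14, where 60.4% of all genes were called). In IMR-90 3 of 17 were higher and 5 lower with siCtrl (median 0.08, where 51.8% of all genes were called) and 5 of 18 and 5 in DMSO (median -0.05, where 55.9% were). TBKBP1, an adaptor of TBK1, averaged 6.66 ± 0.777 CPM on doxorubicin and 2.15 ± 1.03 CPM in proliferating SK-MEL-103 cells (SD, n = 3 each; log2 fold change 1.52, adjusted p = 0.00026), and it gave 1.87 and 2.52 in the 2 IMR-90 comparisons. OPTN, which carries TBK1 to ubiquitin chains, averaged 150.5 ± 1.94 CPM on doxorubicin and 41.8 ± 6.37 CPM in proliferating SK-MEL-103 cells (SD, n = 3 each; log2 fold change 1.75, adjusted p = 4.4e-11). The chaperone gene HSP90AA1 fell by 1.66 in SK-MEL-103, 1.40 in IMR-90 with siCtrl and 1.36 in DMSO on the log2 scale. IRF7, which amplifies interferon responses, averaged 0.0281 ± 0.0132 CPM in SK-MEL-103 and 6.94 ± 3.26 CPM in IMR-90 cells on doxorubicin (SD, n = 3 each). The knockdowns called none of this list, or 1 for siMFN1+2 in IMR-90 without siCtrl library 2.

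Of the genes that make or limit RNA ligands, 4 of 10 were higher and 2 lower in SK-MEL-103 (median -0.01), a share at the background of 60.4% of all genes. In IMR-90 1 was higher and 3 lower with siCtrl (median -0.24, where 51.8% of all genes were called) and 1 and 4 in DMSO (median 0.07, where 55.9% were). PNPT1, the mitochondrial nuclease that removes double-stranded RNA, averaged 44.7 ± 0.590 CPM on doxorubicin and 73.5 ± 6.48 CPM in proliferating SK-MEL-103 cells (SD, n = 3 each; log2 fold change -0.81, adjusted p = 1.5e-06). It gave -1.15 (adjusted p = 0.0032) in IMR-90 with siCtrl and -1.34 (adjusted p = 0.00059) in DMSO. DDX60, an interferon-induced helicase, averaged 7.37 ± 0.859 CPM on doxorubicin and 1.64 ± 0.226 CPM in proliferating SK-MEL-103 cells (SD, n = 3 each; log2 fold change 2.08, adjusted p = 2.1e-05). Under siMFN1+2 in IMR-90 it averaged 4.38 ± 1.34 CPM, against 12.2 ± 3.95 CPM under siCtrl (SD, n = 3 each; log2 fold change -1.44, adjusted p = 0.02), a call lost in 4 of 6 fits without 1 library. Without doxorubicin library 1 or proliferating library 2 the IMR-90 count was 2 in all, and without doxorubicin library 1 or 3 or proliferating library 3 the DMSO count was 3.

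As a description of likeness, log2 levels of each gene were centred within experiments and correlated over the 48 libraries, which share their depth and groups. The gene most like RIGI among 11300 was TAP1 (r = 0.936), a peptide transporter of antigen presentation, followed by SIAE (0.92), APOL2 (0.906), NCSTN (0.906) and ZNF226 (0.895). For MAVS the highest values were ARF3 at 0.751, ELF4 at 0.63, TFAP2A at 0.615, SOX12 at 0.613 and ATL3 at 0.602. The 48 libraries include those of siMAVS, where the siRNA itself lowered MAVS. The values of MAVS and RIGI can therefore not be set against each other. Within the set the closest pairs were RIGI with DHX58 (0.79), TRIM25 with TRAF3 (0.77) and DHX58 with IKBKE (0.68), and IRF3 with TRAF3 was the most opposed (-0.44).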

How the data were processed

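Raw counts per gene were deposited by the authors for 48 libraries as 1 table. Per the submitters' processing notes, reads were trimmed with Trim Galore 0.6.7, aligned with STAR 2.7.10a to GRCh38 and counted with featureCounts; the annotation release, the strand setting and the treatment of reads with several positions are not given in the sources used here. Per the labels' protocols the library kit was stranded and selected mRNA.

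From these deposited counts, CPM values in the text were scaled by TMM over all 48 libraries (21571 genes kept), with groups of 3. Tests used edgeR 4.0.16 (filterByExpr, TMM, quasi-likelihood) in R 4.3.3, with all groups of an experiment in 1 fit, and both siRNA experiments in 1 fit for differences between lines. There were 21 comparisons. P-values were adjusted by Benjamini-Hochberg over all genes tested in a comparison, and a gene was called under 0.05. Log2 fold changes come from the fit, with SE as the fold change over the root of F. Alternatives were DESeq2 1.42.0, another scaling, no filter, fits on the libraries of 1 comparison, a replicate block, each library left out and the earlier form of the quasi-likelihood fit (added after seeing the data). The scripts were tested on simulated data.

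Labels give replicate numbers. Deviations from group means of same-numbered libraries correlated above 0.1 in every pair in 10 of 14 comparisons within experiments (r over all pairs, -0.57 to 0.93); the numbers were taken to pair the libraries there, and not in doxorubicin against proliferating cells with siCtrl in either line, siMAVS in IMR-90, or siMFN2 in SK-MEL-103, where 1 library has no number. No pair of libraries of a group agreed within sampling noise (smallest chi-square per degree of freedom 11.09 over 48 pairs).

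The 10 genes and the 5 gene lists were chosen with earlier results of these data known. All 10 are named in every comparison that is described; of each list, up to 2 genes with the highest and 2 with the lowest log2 fold change among those called could be named, beside MFN1, MFN2 and MAVS, and the 5 genes most like RIGI and MAVS. Genes listed to spell out a count were named after their values were seen.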

Additional observations from a re-analysis of the deposited data

Results flagged for a closer look

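The doxorubicin effect differed between the lines for 2 genes, by a test of the difference itself (edgeR, adjusted p under 0.05). For MAVS the SK-MEL-103 effect less the IMR-90 effect was 1.42 on the log2 scale (SE 0.22, adjusted p = 2.8e-05): all 3 doxorubicin libraries were above the proliferating ones in SK-MEL-103, and all 3 were below them in IMR-90. For DHX58 the difference was 2.36 (SE 0.63, adjusted p = 0.0073), with 3 of 3 doxorubicin libraries above the proliferating ones in SK-MEL-103 and overlapping groups in IMR-90. Both calls were kept in every alternative run. The proliferating SK-MEL-103 group held 14 raw counts of DHX58 in all. DHX58 passed the filter on low counts through other groups, so its doxorubicin effect in that line could only come out as higher.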

How the results depend on the processing

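No called result changed direction under the alternatives run, and of the recomputed counts of called pathway genes 273 were within 1.5 times of those reported and 16 were not. For mitofusin knockdowns with 0 genes called, DESeq2 called 2 for siMFN1+2 in IMR-90 and 1 in SK-MEL-103; the replicate block in the fit of all groups called 1 in each; the block on the libraries of the comparison called 3, 2 and 6 in IMR-90 (siMFN1, siMFN2, siMFN1+2) and 4, 2 and 4 in SK-MEL-103, where the 2 for siMFN2 (RIGI and IFIH1) rests on 2 numbered pairs. Over all genes DESeq2 called 871 for siMFN1+2 in IMR-90 and 69 in SK-MEL-103. The block on the libraries of the comparison called 4.46% of all genes for siMFN2 in SK-MEL-103. For siMAVS, 1 gene called, a fit on the 6 libraries alone called 0 in each line, and with the block 0 in IMR-90. For doxorubicin in DMSO the block in the fit of all groups called 6, against 3. On doxorubicin with siCtrl, where numbers do not pair the libraries, the block on the libraries of the comparison lost DHX58 in IMR-90 and IKBKE and TRAF6 in SK-MEL-103. The cause was not tested in any of these. Leaving out each library gave 6 to 7 genes for doxorubicin in SK-MEL-103, 2 to 3 in IMR-90 and 2 to 4 in DMSO; 0 to 1 for siMFN1+2 in SK-MEL-103 (RIGI without siMFN1+2 library 2) and 0 to 2 in IMR-90 (IKBKE and DHX58 without siCtrl library 2); 2 to 3 for the difference in doxorubicin effect; and 5 to 7 and 4 to 6 between proliferating and between doxorubicin-treated lines. Scaling by DESeq2's size factors moved the difference in doxorubicin effect by -0.15 on the log2 scale, a shift shared by MAVS and DHX58, and moved no other comparison by 0.1. DHX58 and IFIH1 had the lowest levels per kilobase of the set in the control groups.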
